A study of Mus musculus with 12 samples.

Results

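Secreted Wnt antagonists are extracellular proteins that limit Wnt signalling before it reaches the cell. The set described here comprised 9 genes, Sfrp1, Sfrp2, Sfrp4, Sfrp5, Frzb, Dkk2, Dkk3, Wif1 and Notum, chosen by symbol, and each had 1 row among the 24692 rows of the expression table. RNA sequencing libraries, 3 for each of 4 sorted cell populations, had been made from back skin of male mice at about postnatal day 26 to 27. This is early anagen, when follicles begin to grow a new hair. All animals carried the same pair of fluorescent reporters, written Sox2:GFP and aSMA:dsRed, and no group differed in genotype or treatment. The populations were hair follicle dermal stem cells, which lie around the follicle base and give rise to other follicle mesenchyme, dermal papilla cells, the signalling cluster at the base of the follicle, dermal sheath cells, which wrap the follicle, and interfollicular dermal cells. The labels name neither the sorting antibodies nor the animals behind each library, and the p-values below therefore reflect only library-to-library spread, which may be technical.

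Wnt proteins are lipid-modified ligands that bind Frizzled receptors and the co-receptors Lrp5 and Lrp6, and in skin they drive the growth of the hair follicle. Secreted antagonists act at different steps. Secreted Frizzled-related proteins (the Sfrp genes and Frzb) carry a cysteine-rich domain like that of Frizzled and bind Wnt ligands, and Wif1 also binds the ligand. Notum is an enzyme that removes the lipid from Wnt proteins, and Dickkopf proteins (Dkk) act on the co-receptors, with Dkk3 a divergent member whose effect depends on context.

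Values are FPKM, fragments scaled to transcript length and to the mapped fragments of the library, which allow levels of different genes to be set side by side. Differences are on the log2(FPKM + 1) scale, which understates the change of low genes, with adjusted p-values from limma, and a gene was called when its adjusted p was below 0.05. Of the 9 genes 8 passed the filter of at least 1 FPKM in at least 3 libraries, and Sfrp5 did not. The 6 comparisons of 2 populations share libraries and are not independent of each other.

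The 12 libraries differed in ways that bear on every result below. Summed over 10 mesenchyme markers, such as Pdgfra and Col1a1, dermal stem cell and dermal papilla libraries held 9234 to 23857 FPKM, and the 6 libraries labelled as dermal sheath or interfollicular dermis held 816 to 1907. All 10 of these markers were lower in the libraries labelled dermal sheath, and all 10 in those labelled interfollicular dermis, than in dermal stem cells and than in dermal papilla. Acta2, the smooth muscle actin gene behind 1 of the reporters and a defining sheath marker, was at 35.8, 36.2 and 76.0 FPKM in the libraries labelled dermal sheath, against 850 to 901 in dermal stem cells. Summed over 7 interfollicular fibroblast markers, such as Dpp4, the libraries labelled interfollicular dermis held 15.8 to 44.7 FPKM. Dermal stem cells held 344 to 424 and dermal papilla 580 to 938. Those 6 libraries therefore go against their labels in mesenchymal content, and their names are used here as labels only. Keratinocyte marker sums were higher in dermal papilla replicates 1 and 2 (4107 and 4260 FPKM) than in those 6 libraries (1868 to 2301). The 12 single markers did not all follow the sum. With all dermal papilla libraries, 2 were called as higher and 3 as lower in dermal papilla than in dermal sheath (median difference -0.24). Against interfollicular dermis 2 were higher and 4 lower (median -0.38). The medians over all tested genes were -0.36 and -0.32. Within dermal papilla, replicate 4 stood apart: its papilla marker sum was 1830 FPKM, against 305 and 560 in replicates 1 and 2, and its keratinocyte marker sum was 1502, against 4107 and 4260. Among dermal stem cells, replicate 4 had an immune marker sum of 44.2 FPKM, against 1159 and 652 in replicates 1 and 2. Its papilla marker sum was 416, against 247 and 202, and so lay above that of dermal papilla replicate 1 (305). The papilla marker sums of these 2 populations therefore overlapped. Of 10 single papilla markers, 2 were called as higher in papilla libraries when set against stem cells and none as lower (median difference 1.10). The other 8 did not pass. Relative sequencing depth, read from the spacing of low values, spanned a 3.04-fold range over the libraries and is approximate.

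In dermal papilla 3 frizzled-related genes, Sfrp1, Sfrp2 and Sfrp4, were higher than in each of the other 3 populations. Of all tested genes 1.35% met that rule. Against dermal stem cells, 4 of the 8 tested antagonists were higher in dermal papilla (Sfrp1, Sfrp2, Sfrp4 and Notum), 1 was lower (Dkk3), and Frzb, Dkk2 and Wif1 did not pass. Of all 12774 tested genes, 8.69% were called in this comparison, 2.31% as higher and 6.38% as lower in dermal papilla. The median difference was 1.48 over the 8 antagonists and -0.25 over all tested genes.

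**Figure D1:**
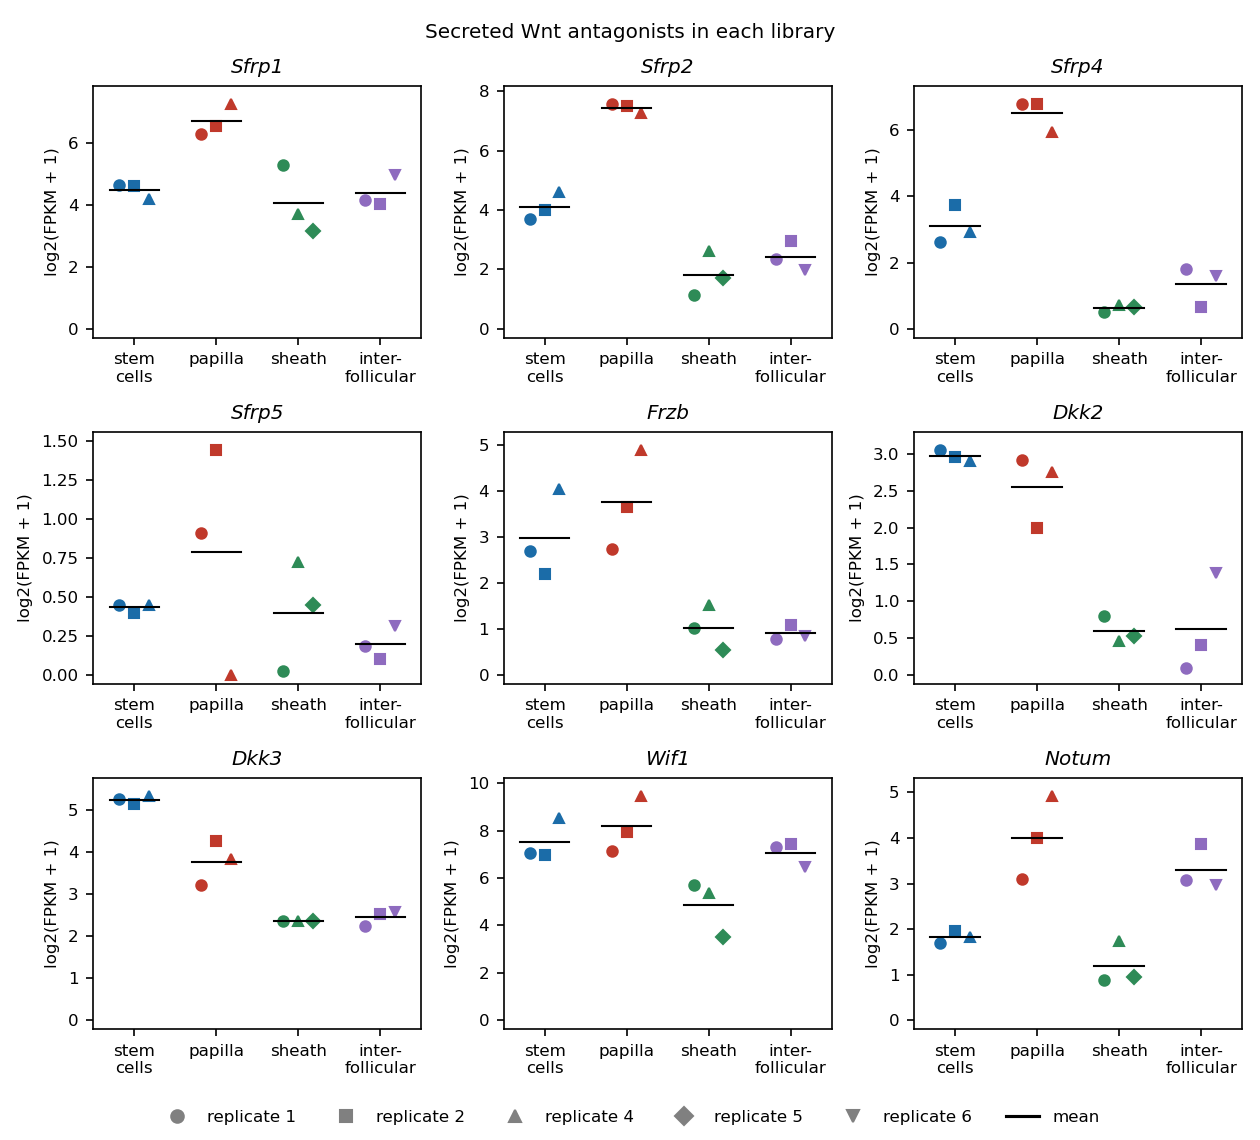
Values of log2(FPKM + 1) of the 9 genes in the 12 libraries, by population, with marker shapes for the replicate number, horizontal offsets for visibility only and a line at the mean of 3 libraries. Sfrp1, Sfrp2 and Sfrp4 sit above all other libraries in dermal papilla, Dkk3 sits highest in dermal stem cells, and Notum is high in dermal papilla and interfollicular dermis. Vertical scales differ between panels.

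Sfrp2 (chromosome 3, 83765750 to 83774314, GRCm38.p6) was the most even of the papilla genes. It was read at 189, 179 and 153 FPKM in dermal papilla replicates 1, 2 and 4, and at 11.9, 15.1 and 23.4 in dermal stem cells replicates 1, 2 and 4. The libraries labelled dermal sheath had 1.22, 5.08 and 2.24 FPKM, and those labelled interfollicular dermis 4.09, 6.67 and 2.98. No dermal papilla library overlapped any other library, and dermal stem cells lay above both remaining populations without overlap. The order was dermal papilla, dermal stem cells, then interfollicular dermis and dermal sheath. The difference from dermal papilla was 3.34 (SE 0.37, adjusted p = 0.000223) for dermal stem cells, 5.02 (adjusted p = 2.6e-06) for interfollicular dermis and 5.63 (adjusted p = 9.13e-07) for dermal sheath. Dermal stem cells exceeded interfollicular dermis by 1.68 (adjusted p = 0.00349), and the last pair did not pass (-0.61 for dermal sheath minus interfollicular dermis, 95% confidence interval -1.40 to 0.18). In GENCODE M21 an antisense gene, Gm26771, overlaps an exon of Sfrp2, and no strand-specific counting is stated, so reads of the pair cannot be told apart.

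Sfrp4 (chromosome 13, 19623175 to 19632825), a relative of Sfrp2, followed the same order at a lower level. Dermal papilla replicates 1, 2 and 4 had 110, 109 and 60.8 FPKM, and dermal stem cells 5.14, 12.4 and 6.58. It was under 1 FPKM in all 3 libraries labelled dermal sheath (0.434, 0.630 and 0.576) and at 2.51, 0.588 and 1.99 in those labelled interfollicular dermis. Dermal papilla was above every other library. It exceeded dermal stem cells by 3.41 (SE 0.37, adjusted p = 0.000219), and dermal stem cells exceeded interfollicular dermis by 1.74 (adjusted p = 0.0029). Over the 12 libraries Sfrp2 and Sfrp4 had the highest correlation of any pair of these genes (Pearson r = 0.97 of log2 values), a description in which the points share populations and depth.

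Sfrp1 (chromosome 8, 23411383 to 23449632) was high in dermal papilla, and the other 3 populations overlapped each other. It was read at 77.2, 91.9 and 152 FPKM in dermal papilla replicates 1, 2 and 4 and at 24.2, 23.5 and 17.3 in dermal stem cells. The libraries labelled dermal sheath spread widely, with 38.5 FPKM in replicate 1 and 12.1 and 8.03 in replicates 4 and 5, and those labelled interfollicular dermis had 17.0, 15.4 and 30.0. No dermal papilla library overlapped any other library. Dermal papilla exceeded dermal stem cells by 2.21 (SE 0.46, adjusted p = 0.0119), interfollicular dermis by 2.31 (adjusted p = 0.00189) and dermal sheath by 2.63 (adjusted p = 0.000592). Dermal sheath minus dermal stem cells was -0.42 (adjusted p = 0.487), and without dermal sheath replicate 1 it was -1.04 and passed (adjusted p = 0.0365).

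Notum (chromosome 11, 120653788 to 120661193), the Wnt deacylase, was high in a different set of populations. It was read at 7.54, 14.9 and 29.5 FPKM in dermal papilla replicates 1, 2 and 4 and at 7.47, 13.5 and 6.77 in interfollicular dermis replicates 1, 2 and 6. Dermal stem cells had 2.26, 2.89 and 2.53, and the libraries labelled dermal sheath 0.862, 2.36 and 0.923. Dermal papilla and interfollicular dermis overlapped, and both lay above all libraries of the other 2 populations. Dermal papilla exceeded dermal stem cells by 2.18 (SE 0.42, adjusted p = 0.00819), and the call ended when those 6 libraries were fitted alone without pairing (adjusted p = 0.0523) and held when they were blocked by replicate number (adjusted p = 0.0423). Interfollicular dermis exceeded dermal stem cells by 1.47 (the fitted difference of dermal stem cells minus interfollicular dermis was -1.47, adjusted p = 0.016), and that call was lost on leaving out stem cell replicate 1 (adjusted p = 0.0526) or interfollicular dermis replicate 2 (adjusted p = 0.0726). Dermal papilla minus interfollicular dermis was 0.71 (95% confidence interval -0.21 to 1.62, adjusted p = 0.194), and it passed without dermal papilla replicate 1 (1.16, adjusted p = 0.0368). The summed level of 8 melanocyte markers was high in the same 2 populations, against 17.2 to 92.7 FPKM in dermal stem cells and 20.8 to 29.9 in dermal sheath. It was 837, 577 and 206 FPKM in dermal papilla replicates 1, 2 and 4, and 970, 170 and 408 in interfollicular dermis replicates 1, 2 and 6. Within each of these populations the library with the highest Notum had the lowest melanocyte sum. The part of melanocyte markers in these differences was not tested. In GENCODE M21 the antisense genes Notumos and Myadml2os overlap exons of Notum, with the same limit on strand as for Sfrp2.

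Wif1 (chromosome 10, 121034004 to 121100642), a ligand-binding antagonist, was the most abundant of the 9 genes in 11 of the 12 libraries, all but dermal papilla replicate 1. It was read at 140, 244 and 710 FPKM in dermal papilla replicates 1, 2 and 4 and at 131, 123 and 366 in dermal stem cells replicates 1, 2 and 4. The libraries labelled interfollicular dermis had 156, 170 and 87.4 FPKM, and those labelled dermal sheath 52.0, 40.9 and 10.6. Dermal papilla, dermal stem cells and interfollicular dermis overlapped, and the libraries labelled dermal sheath lay below all 9 others. Dermal sheath was lower than dermal stem cells by a fitted difference of -2.62 (SE 0.66, adjusted p = 0.00659), and dermal papilla exceeded dermal sheath by 3.30 (adjusted p = 0.00136). Dermal papilla minus dermal stem cells was 0.67 (95% confidence interval -0.75 to 2.10, adjusted p = 0.56), and dermal sheath minus interfollicular dermis was -2.18 (adjusted p = 0.12). By its population mean, Wif1 ranked 62nd of all rows in dermal papilla, 139th in dermal stem cells, 149th in interfollicular dermis and 1247th in dermal sheath.

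Frzb (chromosome 2, 80411970 to 80447396), also called sFRP3, was shared by dermal papilla and dermal stem cells. It was read at 5.67, 11.5 and 28.8 FPKM in dermal papilla replicates 1, 2 and 4 and at 5.48, 3.54 and 15.6 in dermal stem cells. The other 6 libraries ranged from 0.456 to 1.85 FPKM. The first 2 populations overlapped each other and lay above the other 2. Dermal papilla minus dermal stem cells was 0.78 (95% confidence interval -0.39 to 1.96, adjusted p = 0.391), dermal papilla exceeded interfollicular dermis by 2.86 (adjusted p = 0.00136), and dermal stem cells exceeded interfollicular dermis by 2.08 (adjusted p = 0.00967). Dermal sheath was lower than dermal stem cells (-1.95, adjusted p = 0.0114), and this call was lost on leaving out stem cell replicate 4 (-1.41, adjusted p = 0.0506).

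The 2 Dickkopf genes had their highest means in dermal stem cells. Dkk3 (chromosome 7, 112116019 to 112159482) had values of 37.9, 34.4 and 39.9 FPKM in dermal stem cells replicates 1, 2 and 4 and at 8.29, 18.4 and 13.4 in dermal papilla. It was almost constant in the libraries labelled dermal sheath, at 4.12, 4.17 and 4.12 FPKM, and at 3.71, 4.83 and 4.96 in interfollicular dermis. Dermal stem cells lay above all other libraries and dermal papilla above the remaining 6. Dkk3 alone of the 8 tested genes passed as higher in dermal stem cells than in each other population, a rule met by 3.53% of tested genes. Dermal papilla minus dermal stem cells was -1.48 (SE 0.25, adjusted p = 0.00408), and dermal papilla exceeded interfollicular dermis by 1.33 (adjusted p = 0.00146) and dermal sheath by 1.42 (adjusted p = 0.000675).

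Dkk2 (chromosome 3, 132085266 to 132180304), a ligand of Lrp6, was lower throughout. It was read at 7.32, 6.75 and 6.49 FPKM in dermal stem cells replicates 1, 2 and 4 and at 6.54, 2.98 and 5.78 in dermal papilla. The libraries labelled dermal sheath had 0.733, 0.369 and 0.446 FPKM, and those labelled interfollicular dermis 0.0690, 0.317 and 1.61. Dermal papilla and dermal stem cells overlapped and lay above the other 6 libraries. Dermal papilla minus dermal stem cells was -0.42 (95% confidence interval -1.18 to 0.35), and dermal papilla exceeded interfollicular dermis by 1.93 (SE 0.35, adjusted p = 0.00107), a value that became 3.32 with a pseudocount of 0.1. Sfrp5 (chromosome 19, 42197971 to 42202252) was the scarcest member: 11 of its 12 values were below 1 FPKM, the highest was 1.72 in dermal papilla replicate 2, and it was listed at 0 in dermal papilla replicate 4. Without the filter on low values none of its 6 comparisons passed (adjusted p from 0.219 to 1).

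Upstream sequences are shown for Wif1, Dkk2 and Sfrp5, the members whose window lay mostly outside the gene in both RefSeq and GENCODE M21. Frzb had 21 such bases and Sfrp2 had 0. The choice was not made by expression level, though Wif1 was the most abundant member and Sfrp5 the scarcest. They are RefSeq promoter windows of GRCm38.p6, which begin 250 bases before the annotated start and were cut here where either RefSeq or GENCODE M21 places the gene. The Wif1 stretch is chr10:121033754-121033959 (plus strand, 206 bases), the Dkk2 stretch chr3:132085042-132085265 (plus strand, 224 bases) and the Sfrp5 stretch chr19:42202253-42202502 (minus strand, 250 bases). Capitals mark TATAAA or its reverse complement TTTATA.
Wif1: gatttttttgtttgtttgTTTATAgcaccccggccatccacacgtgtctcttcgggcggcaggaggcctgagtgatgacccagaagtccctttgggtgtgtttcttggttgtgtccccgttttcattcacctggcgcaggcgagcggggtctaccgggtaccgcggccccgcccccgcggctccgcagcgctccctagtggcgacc
Dkk2: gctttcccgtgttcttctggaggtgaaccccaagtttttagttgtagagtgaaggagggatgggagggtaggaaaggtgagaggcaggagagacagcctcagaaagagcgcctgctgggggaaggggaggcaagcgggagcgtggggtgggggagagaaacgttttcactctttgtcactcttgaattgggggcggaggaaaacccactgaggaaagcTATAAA
Sfrp5: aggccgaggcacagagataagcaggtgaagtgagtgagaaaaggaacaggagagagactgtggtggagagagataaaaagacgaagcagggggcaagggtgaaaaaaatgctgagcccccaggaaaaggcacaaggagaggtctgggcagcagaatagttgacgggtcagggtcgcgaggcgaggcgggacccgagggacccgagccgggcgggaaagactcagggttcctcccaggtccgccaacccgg
TATAAA, the letters of a TATA box, was searched on both strands, a choice made after these sequences had been seen. It began 32 bases before the RefSeq transcript start on which the Dkk2 window is built, and its reverse complement 232 bases before that of Wif1. In Dkk2 it also ended directly before position 132085266, where the RefSeq gene begins. Of all 32851 windows in the table, 12.4% held it. CTTTGA, the core letters of the site bound by TCF/LEF factors, was also searched on both strands. Among the 5 members matched to a window (Sfrp2, Sfrp5, Frzb, Dkk2 and Wif1), only that of Frzb held it, 95 bases before the RefSeq start and inside the gene as GENCODE M21 places it, and 13.8% of all windows did. It is shown in capitals with 10 bases on each side, at chr2:80447476-80447501 on the minus strand, where the reverse complement TCAAAG is read.
Frzb: ccctgaaaacTCAAAGccttctcgga
These matches are letters in a window and were not tied to any measured binding.

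Dermal papilla and dermal stem cell libraries with the same replicate number deviated together from their group means, so ratios were also taken within each number. Frzb and Wif1, which did not pass in the comparison of groups, were higher in dermal papilla in 3 of 3 pairs. The Wif1 ratio was 1.06, 1.98 and 1.94 in replicates 1, 2 and 4, and the Frzb ratio 1.03, 3.24 and 1.85. Neither passed in a fit of these 6 libraries blocked by replicate number (adjusted p = 0.154 for Wif1 and 0.185 for Frzb). Sfrp4 ratios were 21.4, 8.79 and 9.25, Sfrp2 ratios 15.8, 11.8 and 6.52, and Notum ratios 3.33, 5.17 and 11.6. Sfrp2 had its smallest ratio in replicate 4, where Notum and Sfrp1 (8.82) had their largest. Dkk3 and Dkk2 were lower in dermal papilla in 3 of 3 pairs, with ratios of 0.219 to 0.535 for Dkk3 and 0.442 to 0.893 for Dkk2.

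**Figure D2:**
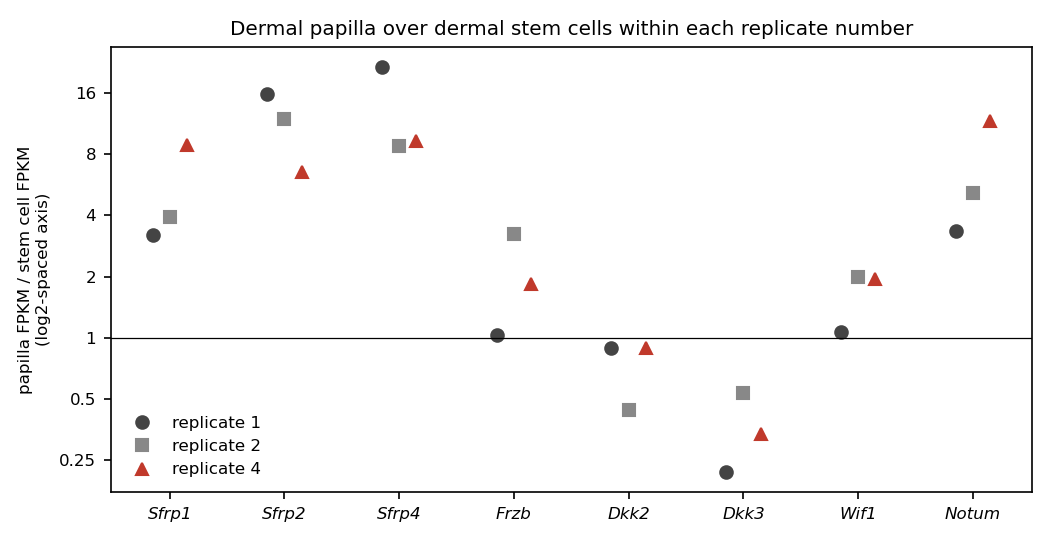
Ratio of dermal papilla FPKM to dermal stem cell FPKM for the 8 tested genes, on a log2-spaced axis, with 1 point for each replicate number. Points above the line at 1 are higher in dermal papilla: all 3 for Sfrp1, Sfrp2, Sfrp4, Notum, Frzb and Wif1, and none for Dkk2 and Dkk3.

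Replicate 4 of dermal papilla, with the highest sum of papilla markers, had the highest Wif1 (710 FPKM), Sfrp1 (152), Notum (29.5) and Frzb (28.8) of all 12 libraries. It had the lowest Sfrp2 and Sfrp4 of the 3 dermal papilla libraries. Its sums of keratinocyte (1502 FPKM) and melanocyte markers (206) were the lowest of the 3. Among the dermal stem cell libraries, replicate 4 also had the highest Wif1 (366 FPKM) and Frzb (15.6), with the lowest Sfrp1 (17.3). Keratinocyte and melanocyte markers also moved between these populations, 3 of 12 and 5 of 8 being higher in dermal papilla and none lower. Leaving out dermal papilla replicates 1 and 2, a choice made after seeing the data, kept 1 dermal papilla library, so only differences are given. Against dermal stem cells they were 3.16 for Sfrp2, 2.86 for Sfrp4, 2.77 for Sfrp1, 3.10 for Notum and -1.41 for Dkk3. Against interfollicular dermis Wif1 was at 2.41 and Notum at 1.63, beside 1.12 and 0.71 with all dermal papilla libraries. Replicate 4 had the highest Wif1 and Notum of all 12 libraries, so the choice of library fixed the direction of both. In bulk libraries of this kind, fewer cells of a type and less RNA per cell cannot be told apart.

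In the libraries labelled dermal sheath no antagonist was called as higher than in any other population. Against dermal stem cells, 6 of 8 were lower (Sfrp2, Sfrp4, Frzb, Dkk2, Dkk3 and Wif1), where 43.9% of tested genes were called, 24.3% as higher and 19.6% as lower. The differences ran from -1.95 for Frzb to -2.90 for Dkk3, with a median of -2.33 over the 8 genes and 0.13 over all tested genes. Against dermal papilla all 8 were lower in dermal sheath, where 49.8% of tested genes were called, 16.4% as higher and 33.4% as lower in dermal papilla. The differences of dermal papilla minus dermal sheath ran from 1.42 for Dkk3 to 5.88 for Sfrp4. The mesenchyme markers moved with these results, with a median of -3.90 for dermal sheath minus dermal stem cells. Cell-cycle markers were higher in dermal sheath, 8 of 8 against each of these populations, with sums of 298 to 396 FPKM, against 22.0 to 58.5 in the stem cells and 14.9 to 28.3 in dermal papilla. Of 12 keratinocyte markers 8 were higher and 2 lower in dermal sheath relative to the stem cells, with sums of 1868 to 2068 against 857 to 1607 FPKM. The part of these markers in the results was not tested.

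The libraries labelled interfollicular dermis also had low levels of most members. Against them, 5 of 8 antagonists were higher in dermal stem cells (Sfrp2, Sfrp4, Frzb, Dkk2 and Dkk3) and Notum was lower, where 37.6% of tested genes were called, 17.9% as higher and 19.7% as lower in dermal stem cells. Dermal papilla exceeded interfollicular dermis in 6 of 8, all but Wif1 and Notum, where 42.3% of tested genes were called, 13.7% as higher and 28.6% as lower in dermal papilla. Mesenchyme markers moved the same way, with a median of 4.12 for dermal stem cells and 3.77 for dermal papilla minus interfollicular dermis. Cell-cycle markers moved the opposite way, 7 of 8 being lower in dermal stem cells and 7 of 8 in dermal papilla, as were 9 of 12 keratinocyte markers in dermal stem cells and 4 of 12 in dermal papilla, with 1 and 2 higher. Their part in these results was not tested. Wif1 at 138 ± 44.3 FPKM (SD, n = 3) and Notum at 9.24 ± 3.69 (SD, n = 3) did not pass as lower than in dermal papilla, in libraries whose mesenchyme sums were 816 to 1541 FPKM.

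Between dermal sheath and interfollicular dermis as labelled, Notum alone of the 8 was called, lower in dermal sheath (-2.10, SE 0.42, adjusted p = 0.0223), where 2.26% of tested genes were called, 0.939% as higher and 1.32% as lower. The call ended without dermal sheath replicate 1 (adjusted p = 0.0835) or 5 (0.102), without interfollicular dermis replicate 1 (0.0698) or 2 (0.103), and without the filter on low values (0.0658). Melanocyte markers also differed in this pair, 5 of 8 being lower in dermal sheath. None of the 8 was higher in dermal sheath than in each other population, a rule met by 0.532% of tested genes, and none in interfollicular dermis, where 0.587% met it. The F test over the 4 populations called all 8 tested antagonists, where 56.8% of tested genes were called.

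**Figure D3:**
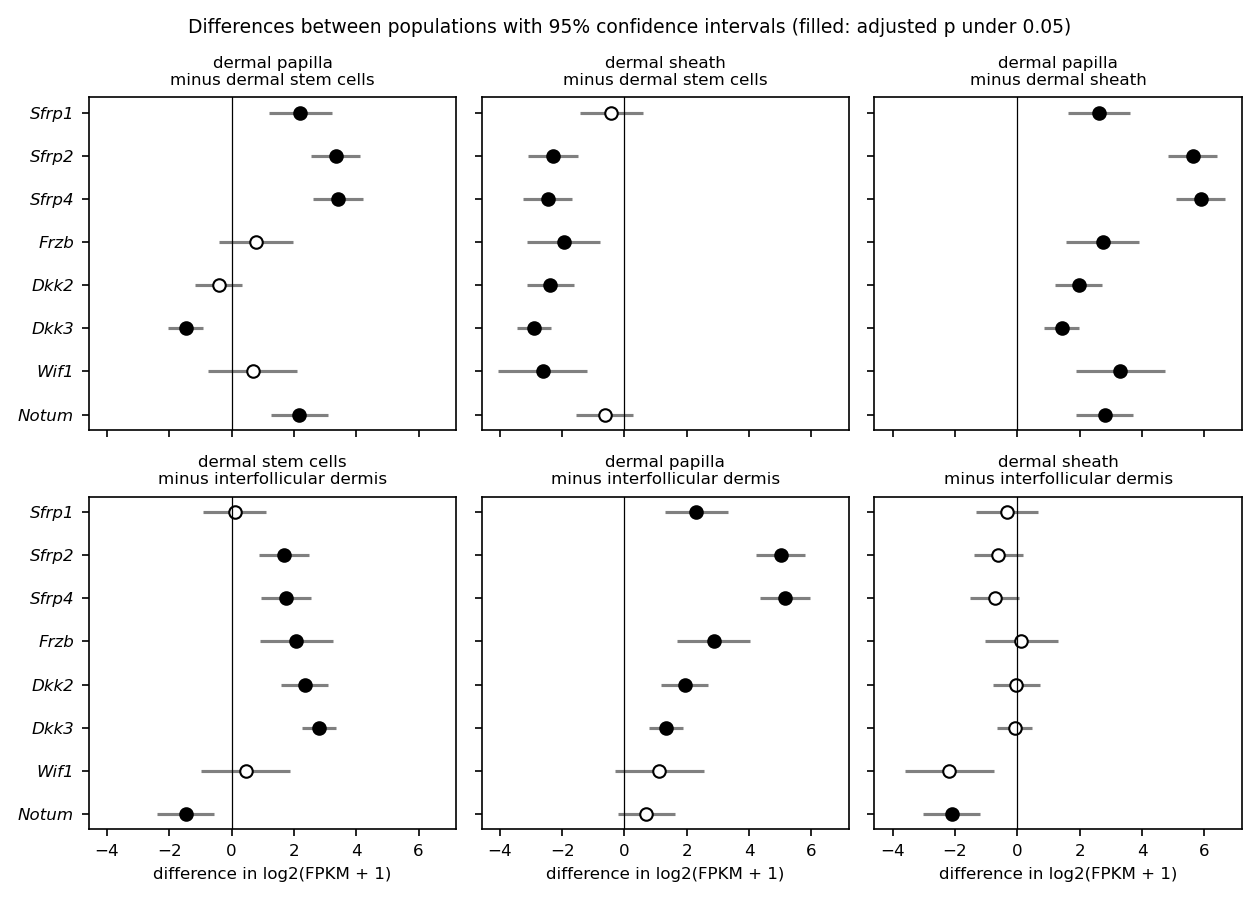
Difference in log2(FPKM + 1) of the 8 tested genes in the 6 comparisons, first population minus second, with 95% confidence intervals from the fit over 12 libraries. Filled points passed at an adjusted p below 0.05. All 8 are filled and above 0 for dermal papilla minus dermal sheath, and only Notum is filled for dermal sheath minus interfollicular dermis.

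The make-up of the set differed as well as its level. Summed over the 9 genes, dermal papilla held 544, 673 and 1153 FPKM in replicates 1, 2 and 4, dermal stem cells 226, 222 and 478, interfollicular dermis 137 to 213 and dermal sheath 27.7 to 98.8. Every dermal papilla library was above all others. Wif1 made up 55.5% to 76.6% of the sum in dermal stem cells and 63.9% to 81.4% in interfollicular dermis, and 25.7%, 36.3% and 61.6% in dermal papilla replicates 1, 2 and 4. Sfrp2 was the leading member in dermal papilla replicate 1 (34.7%), where Sfrp4 added 20.2%. In dermal stem cells Sfrp2 held 4.90% to 6.81%, and Dkk3 was second to Wif1 in each library with 8.34% to 16.8%. Sfrp1 took 17.8% to 38.9% in the libraries labelled dermal sheath.

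**Figure D4:**
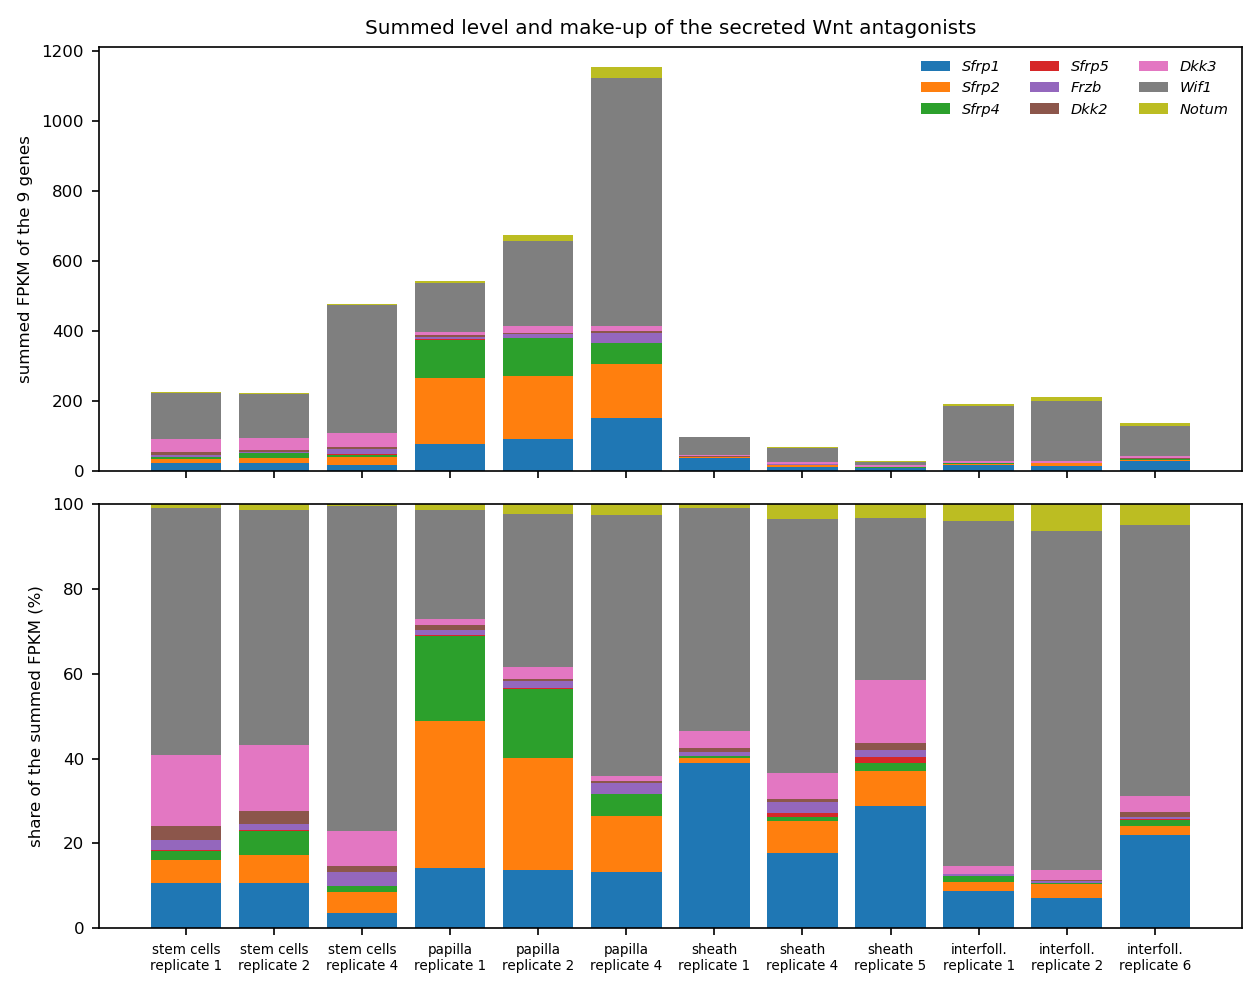
Summed FPKM of the 9 genes in each library (upper panel) and the percentage of that sum held by each gene (lower panel), with 1 bar per library. Dermal papilla bars reach 544 to 1153 FPKM and hold the largest shares of Sfrp2, those of Sfrp4 are largest in dermal papilla replicates 1 and 2, and Wif1 fills most of the interfollicular dermis bars.

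The summed ligands did not follow the summed antagonists. Summed over 19 Wnt ligand genes, interfollicular dermis held 75.8 to 99.8 FPKM, dermal sheath 37.3 to 74.8, dermal stem cells 33.2 to 48.6 and dermal papilla 31.3 to 48.9. Dermal papilla thus had the highest antagonist sums and ligand sums that overlapped those of dermal stem cells and of dermal sheath. Of 11 ligand genes tested, 1 was higher and 3 lower in dermal papilla relative to the stem cells, among them Wnt9a (0.890 ± 0.372 against 5.77 ± 1.10 FPKM, n = 3 each, -1.85) and Wnt11 (-1.72). Against interfollicular dermis 1 was higher, Wnt2 (2.59), and 5 were lower, led by Wnt10b (1.70 ± 1.77 against 17.9 ± 1.58 FPKM, n = 3 each, -3.05). Of all tested genes, 2.31% were called as higher and 6.38% as lower against the stem cells, and 13.7% and 28.6% against interfollicular dermis. Porcn, which adds the lipid that Notum removes, was lower in dermal papilla relative to the stem cells (3.61 ± 0.686 against 12.4 ± 1.93 FPKM, n = 3 each, -1.54).

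**Figure D5:**
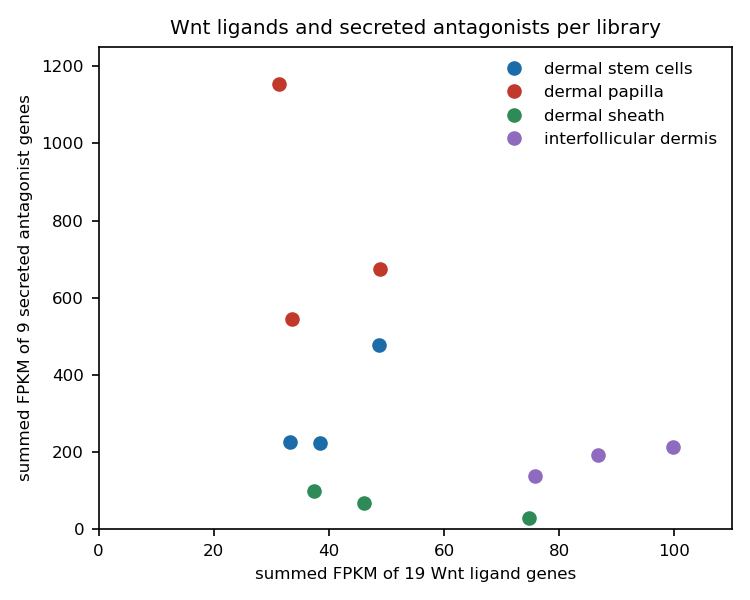
Summed FPKM of 19 Wnt ligand genes (horizontal axis) against summed FPKM of the 9 secreted antagonists (vertical axis), with 1 point per library coloured by population. Dermal papilla libraries lie at the top left, with 544 to 1153 FPKM of antagonists, and interfollicular dermis libraries lie at the right, with 75.8 to 99.8 FPKM of ligands.

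Receptors of the antagonists and their ligands were also measured. Of 16 receptor and co-receptor genes tested, 3 were lower and none higher in dermal papilla relative to the stem cells. Those lower included the Wnt receptor genes Fzd2 (-1.52) and Fzd7 (-1.39), where 6.38% of all tested genes were called as lower. Against interfollicular dermis 1 was higher and 5 lower, led by Kremen2 (-4.23) and Fzd10 (-3.04), a count near the share of all tested genes called there (42.3%, 28.6% as lower). Kremen2, which encodes a co-receptor for Dickkopf proteins, ranged from 0.0525 to 0.623 FPKM in dermal papilla and from 0.131 to 0.543 in the stem cells, the 2 populations with the highest Dkk2 and Dkk3. It was at 4.61 to 11.8 FPKM in dermal sheath and 23.7 ± 12.6 (SD, n = 3) in interfollicular dermis, without overlap. Dermal sheath minus interfollicular dermis was -1.56 for Kremen2 and did not pass (adjusted p = 0.0647). Kremen1, also a co-receptor gene for Dickkopf proteins, was not low in dermal papilla or the stem cells. Its means there were 15.3 and 14.5 FPKM (difference 0.07, adjusted p = 0.849), against 20.5 in dermal sheath and 38.3 in interfollicular dermis.

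R-spondins are secreted proteins that strengthen Wnt signalling. Of 9 genes of the R-spondin branch, 3 were higher and 1 lower in dermal papilla relative to the stem cells, with Rspo3 (3.37) and Rspo2 (2.51) foremost. Rspo1 did not pass there (1.29, adjusted p = 0.18) and its values overlapped between the populations. In dermal papilla 4 were higher and 3 lower than in interfollicular dermis, with Rspo4 (3.39) and Rspo3 (3.30) foremost. Of 11 transcription factor and target genes tested, 1 was higher in dermal papilla relative to the stem cells, Tnfrsf19 (1.47), and 2 were lower, including Tcf7l2 (-2.09). Against interfollicular dermis 1 was higher and 4 were lower, including Tnfrsf19 (-2.79) and the transcription factor gene Lef1 (19.4 ± 13.5 against 87.0 ± 22.7 FPKM, n = 3 each, -2.32). Of all tested genes, 2.31% were called as higher and 6.38% as lower in dermal papilla relative to the stem cells. Relative to interfollicular dermis 13.7% were called as higher and 28.6% as lower, near the counts of the transcription factors and targets there.

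Other genes reported to antagonise Wnt signalling did not move as a block. Of 8 tested, 2 were higher and 3 lower in dermal papilla relative to the stem cells. Igfbp4, an insulin-like growth factor binding protein that can bind Frizzled and Lrp6, had a mean of 88.5 ± 32.0 FPKM in dermal papilla against 1033 ± 221 in the stem cells (n = 3 each, -3.57), and the membrane protein gene Tpbg was also lower (-2.00). Against interfollicular dermis 4 were higher in dermal papilla and none lower, led by Serpinf1 (479 ± 124 against 17.1 ± 3.82 FPKM, n = 3 each, 4.72) and Sostdc1, an antagonist of BMP and Wnt (2.08). The shares over all tested genes were 2.31% higher and 6.38% lower against the stem cells, and 13.7% and 28.6% against interfollicular dermis.

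The median difference of dermal papilla minus dermal stem cells was 0.04 for the ligands, -0.34 for the receptors, 0.12 for the R-spondin branch, 0.15 for the transcription factors and targets and 0.05 for the other antagonists, beside -0.25 over all tested genes. For dermal papilla minus interfollicular dermis the medians were -0.82, -0.58, -0.36, -0.83 and 1.47 in the same order, beside -0.32 over all tested genes.

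For each tested member the 3 genes with the most similar pattern over the 12 libraries were listed, as a description without a test, since the points share populations, depth and the differences in mesenchymal content. Sfrp1 was most like Gnai1 (Pearson r = 0.98 of log2 values), a G protein subunit gene, followed by Slc22a4 and Nfkbiz. Sfrp2 was most like Glt8d2, Esr1, the oestrogen receptor gene, and Nrk (r = 0.97 for each). Sfrp4 was most like Sod3, an extracellular superoxide dismutase gene, Tmeff2 and Chrdl1, a BMP antagonist gene. Frzb was nearest to Ptprd, Plscr4 and the R-spondin gene Rspo1, and Notum to Scube1 (r = 0.97), the BMP ligand gene Bmp4 and Rspo2. Scube1 shared the order of Notum, with 19.9 FPKM in dermal papilla, 10.3 in interfollicular dermis, 2.18 in dermal stem cells and 1.68 in dermal sheath. Dkk2 was nearest to Adamts14, the collagen hydroxylase gene Plod1 and Dnm1, and Dkk3 to Zfp651, Tmem119 and Egflam. Wif1 was nearest to Runx3 (r = 0.93), Enpp2 and the endothelin gene Edn3. Among the members themselves, correlations ran from 0.02 between Dkk3 and Notum to 0.97 between Sfrp2 and Sfrp4.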

How the data were processed

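The data are 12 RNA sequencing libraries. Per the labels' protocols, skin was digested, cells were sorted and SOLiD libraries were made from bead-captured RNA. The authors deposited 1 table of FPKM values with 1 column per library, and the submitters' processing notes list TopHat2 2.0.13, SAMtools, Cufflinks 2.2.1 and mm10, without roles. Annotation and counting by strand are not given in the sources used here, and read depth per value is unknown, so counting intervals are not given. An exact 0 can be a failed estimate: 408 tested genes had a 0 in some library and more than 10 FPKM in another. Relative depth was the commonest ratio to dermal stem cells replicate 2 among genes under 0.3 FPKM.

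The 12774 genes that reached 1 FPKM in 3 or more libraries were fitted as log2(FPKM + 1) with limma 3.58.1 (R 4.3.3), 4 population means, empirical Bayes with trend, and Benjamini-Hochberg adjustment over all tested genes per comparison. All tests are two-sided, and the script was tested on simulated data. Replicate numbers come from the titles, the third dermal sheath library (replicate 1) having a title of another form. Same-numbered dermal papilla and dermal stem cell libraries correlated in their deviations from the group means (0.31, 0.24 and 0.39), and the numbers were taken to pair them. Same-numbered pairs involving dermal sheath or interfollicular dermis ran from -0.27 to 0.29. The largest value of all, 0.45, joined dermal sheath replicate 1 and interfollicular dermis replicate 6. The block over 12 libraries thus rests on numbers not shown to pair those populations. All 9 members were named, with 3 alike genes each and the 2 largest calls of each other pathway list in 2 comparisons. Members and lists were chosen with earlier results of these data known. Of the list symbols, 1 was matched by an older symbol. Positions are RefSeq GRCm38.p6.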

Additional observations from a re-analysis of the deposited data

How the results depend on the processing

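With each of the alternatives tried (pseudocount, filters, scaling, empirical Bayes, replicate block, pairs of groups alone and each library left out), the number of members called stayed within 1.5 times its value for 5 of the 6 comparisons and for the F test. The exception was dermal sheath against interfollicular dermis, where the 1 call (Notum) became 0 without the filter on low values, with 203 of all genes still called there. With each library left out in turn, members called were 5 for dermal papilla against dermal stem cells, 8 against dermal sheath, 6 to 7 against interfollicular dermis, 5 to 7 in dermal sheath relative to the stem cells, 5 to 6 for dermal stem cells against interfollicular dermis and 0 to 1 for dermal sheath against interfollicular dermis. For single members, 963 of the values kept direction and side of the threshold, 9 lost the call, 4 gained it and 16 changed sign, and no value that changed sign was called. These totals also count the fit without dermal papilla replicates 1 and 2, chosen after seeing the data. A gained call of Wif1 and one of Notum, in dermal papilla against interfollicular dermis, came from that fit, which holds no spread between dermal papilla libraries. In many settings the difference itself could not change, as when the library left out belonged to neither population or only the filter changed. Only the adjusted p could move there. Notum in dermal papilla against dermal stem cells lost its call with those 2 populations fitted alone, where 512 of all genes were called (adjusted p = 0.0523). With each library left out in turn, its adjusted p ran from 0.00371 to 0.0339.

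For dermal sheath minus interfollicular dermis, Dkk2 (-0.03) changed sign with a pseudocount of 0.1 (0.27), with quantile normalization (0.16) and with the replicate block over 12 libraries (0.30). With that block Sfrp1 (0.49), Frzb (-0.31) and Dkk3 (0.046) also changed sign there, as did Sfrp1 in dermal sheath minus dermal stem cells (0.022) and Wif1 in dermal stem cells minus interfollicular dermis (-0.24). With libraries left out, the signs that changed belonged to ranges of -0.30 to 0.35 for Dkk2, -0.12 to 0.37 for Frzb and -0.94 to 0.12 for Sfrp1 in dermal sheath minus interfollicular dermis, -1.04 to 0.023 for Sfrp1 in dermal sheath minus dermal stem cells, and -0.077 to 0.38 for Sfrp1 and -0.059 to 0.72 for Wif1 in dermal stem cells minus interfollicular dermis. The cause was not tested. In the paired 6 libraries, the replicate block called 5 members (4 higher and 1 lower) and 658 of all genes, and the fit of the same libraries without it 4 members and 512 genes, the block restoring the call of Notum (adjusted p = 0.0423). Members called with the block were as many in each direction as in the fit over 12 libraries, which called 1110 genes. Median-of-ratios scaling gave 451 higher and 514 lower among all genes in dermal papilla relative to the stem cells, in place of 295 and 815, and quantile normalization 493 and 467. The median over all genes there went from -0.25 to -0.07 with median-of-ratios scaling, and 4 members higher and 1 lower were called under both. Median-of-ratios scaling also gave 2852 higher and 2645 lower when dermal papilla was compared with dermal sheath (2094 and 4271 in the deposited scale), 2459 and 2204 against interfollicular dermis (1746 and 3654), and 2283 and 2815 in dermal sheath relative to the stem cells (3105 and 2502), with the counts of members unchanged.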
